A study of Mus musculus with 6 samples.

Results

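The genes described here are 10 mouse genes of mitosis, measured in melan-a melanocytes and B16 melanoma cells. They are Bub1, Bub1b, Bub3 and Mad2l1 of the spindle checkpoint, Cenpa and Cenpe of the centromere and kinetochore, Aurka and Birc5 of the mitotic kinase complexes, and Ect2 and Anln of cytokinesis. All 10 are among the 3549 entries that the study lists as differing between the cell lines. That list names no probe, so each gene was placed on the array by its listed average fold. Every probe whose mean ratio over the 6 arrays gave the listed fold within 0.00051 was kept as a candidate. This left 32 candidate probes, of 41174 probes on the array. The genes and their probes were thus chosen by the same difference between melan-a and B16 that is given below. It is therefore described with its spread and not tested.

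The 6 arrays are two-colour Agilent arrays, each of a separate biological replicate, and RNA of both cell lines was hybridised together on each. Melan-a is a partially immortalized, non-tumorigenic melanocyte line and B16 a melanoma line, and both come from C57/Bl6 mice. Melan-a cells grew in RPMI 1640 with 5% fetal bovine serum and 200 nM phorbol 12-myristate 13-acetate, while the medium of B16 cells was DMEM with bovine calf serum at 10%. Both were harvested 72 h after seeding and neither was given retinoic acid. Each condition is a single cell line, so the cell line, its medium, its serum and the phorbol ester cannot be told apart in these data. The paper also gives B16 a shorter doubling time in log phase than melan-a, and growth rate cannot be separated from these. Melan-a RNA carried Cy5 in replicates 1, 3 and 5 and Cy3 in replicates 2, 4 and 6. The median summed signal of a probe spot was between 779.9 and 4307.5 on the 6 arrays.

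The spindle checkpoint holds a dividing cell in metaphase until the kinetochore of every chromosome is attached to spindle microtubules. Bub1 and BubR1, the product of Bub1b, are kinases or kinase-like proteins that gather with Bub3 at kinetochores without microtubules. There Mad2, the product of Mad2l1, is turned into a form that holds back Cdc20 and with it the anaphase-promoting complex. After anaphase the guanine nucleotide exchange factor Ect2 activates RhoA at the cell equator, and the scaffold protein anillin, encoded by Anln, ties actin, myosin and septins together in the contractile ring. Transcripts of many such genes are known to rise in G2 and mitosis and to be low in cells that have left the cycle. RNA of a cell population does not tell fewer cells in mitosis from less RNA in each such cell.

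The promoters of genes of this kind are known for CCAAT boxes, the binding letters of NF-Y, and for the cell cycle homology region. Both were searched in the RefSeq promoter windows of build GRCm38.p6, which hold 250 bases before and 50 after each start and matched all 10 genes. The 150 bases before the start are printed, 5′ to 3′ on the strand of the gene, for the 5 genes that had a single annotated window, CCAAT letters before the start and a mean difference of 3.71 times or more, to show how near the start these letters lie. Capitals mark CCAAT or its reverse complement ATTGG.
Bub1 (chr2:127831860-127832009, minus strand): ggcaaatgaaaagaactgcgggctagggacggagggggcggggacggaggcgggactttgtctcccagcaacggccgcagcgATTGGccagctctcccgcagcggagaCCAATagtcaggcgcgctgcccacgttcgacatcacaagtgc
Bub1b (chr2:118598061-118598210, plus strand): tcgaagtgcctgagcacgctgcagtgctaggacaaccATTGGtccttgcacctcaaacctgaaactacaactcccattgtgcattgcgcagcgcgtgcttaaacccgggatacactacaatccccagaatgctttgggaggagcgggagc
Aurka (chr2:172370571-172370720, minus strand): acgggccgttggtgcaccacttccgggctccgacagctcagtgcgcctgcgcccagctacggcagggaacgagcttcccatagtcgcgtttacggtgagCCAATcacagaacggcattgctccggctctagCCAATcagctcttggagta
Cenpa (chr5:30666736-30666885, plus strand): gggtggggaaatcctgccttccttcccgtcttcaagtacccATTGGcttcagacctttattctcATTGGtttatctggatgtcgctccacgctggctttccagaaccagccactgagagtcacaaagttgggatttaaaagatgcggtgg
Cenpe (chr3:135212413-135212562, plus strand): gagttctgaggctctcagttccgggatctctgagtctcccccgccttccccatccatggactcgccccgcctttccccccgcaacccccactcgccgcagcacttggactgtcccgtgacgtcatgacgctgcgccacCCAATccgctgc
Bub1 has these letters at -68 and -42 from the start, where -1 is the last base before it, and Aurka has them at -51 and -19. Cenpa holds the reverse complement at -109 and -86. A single match lies at -113 in Bub1b and at -12 in Cenpe.

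Over the whole windows and both strands, CCAAT was found in 7 of the 10 genes, namely these 5 with Bub3 and Ect2. It was found in 37.4% of all 32851 windows and in 41.1% of the 27025 genes with a window. The letters TTTGAA of the cell cycle homology region were found in Bub1b, Bub3, Aurka, Cenpa, Ect2 and Anln, which is 6 of 10 genes, and in 17.9% of all windows and 20.2% of all genes. In Cenpa, Aurka and Bub1b they lie after the start, from 17 to 22, 33 to 38 and 41 to 46. Anln has them after it as well, from 22 to 27 and 29 to 34. Bub3 has them before the start and Ect2 on both sides of it. No window of the 10 genes held a cell cycle dependent element ahead of that region, searched as GCGG, 4 bases of any kind and TTTGAA, or the E2F letters TTTGGCGC or TTTCGCGC. Those letters are in 0.07%, 0.514% and 0.323% of all windows. CCAAT and TTTGAA do not overlap in these windows. Such matches describe the letters of a window and are no evidence of a bound factor.

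All 10 genes had lower signals in melan-a than in B16, by mean log2 ratios of melan-a over B16 from -2.60 for Bub1 to -0.83 for Bub3. Of the 192 ratios of the 32 candidate probes, 189 were below 0. The genes lay in 2 ranges. Bub1, Cenpe, Mad2l1, Ect2, Anln, Cenpa, Bub1b and Aurka, with 17 candidate probes, had means between -2.60 and -1.89, or signals 6.06 to 3.71 times higher in B16. Birc5 and Bub3, with 15 candidate probes, had means of -0.86 and -0.83, or 1.81 and 1.78 times. The melan-a signal was at or below the 95th percentile of the negative controls on an array or more for 15 of the 32 candidates. It was above that percentile on 3 of 6 arrays for the first Bub1 candidate, and on 2 of 6 for Cenpe and for a Birc5 candidate (A_51_P124485). The B16 signal was above its own control percentile on all 6 arrays for 28 of the 32. The rest were candidates of Bub3 and Birc5, at or below it in replicate 1. All these folds are thus those of the signals as deposited, background included. Within the first range neighbours were at most 0.24 apart, less than the smallest SD of any of these candidates, 0.35. These SDs include shifts between arrays that the probes share. Genes were not compared array by array, so whether their order holds was not tested. The step from Aurka to Birc5 was 1.03 in the means by which the probes were chosen, so it is described and was not tested.

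**Figure D1:**
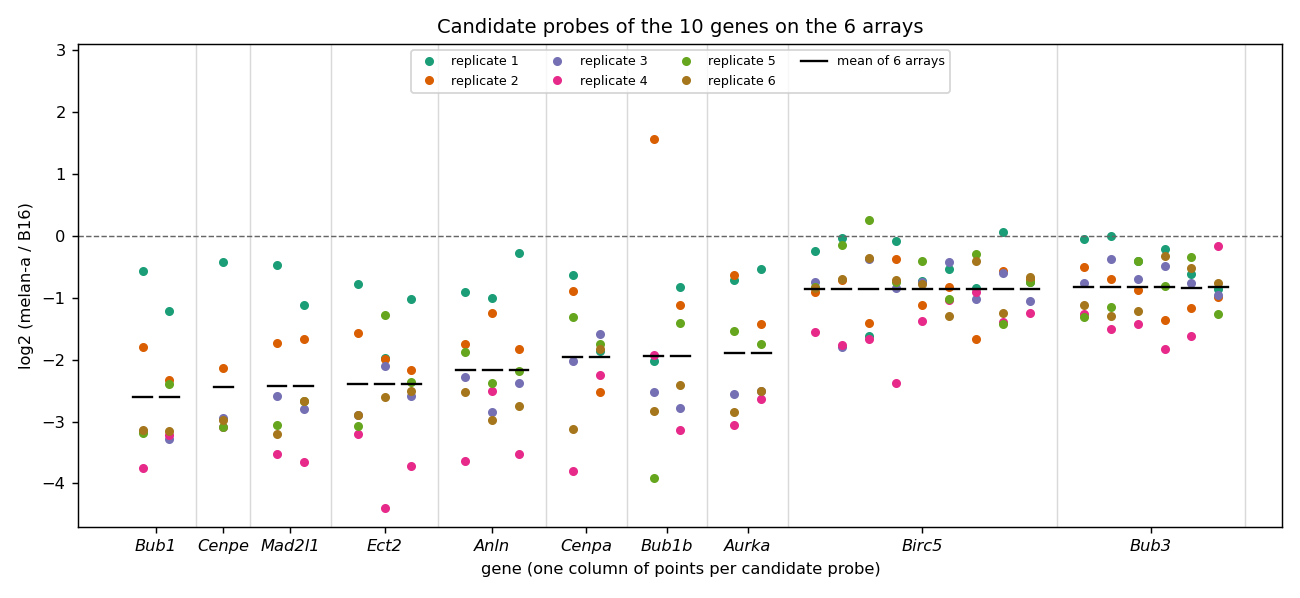
Log2 ratio of melan-a over B16 (vertical axis) for each candidate probe of the 10 genes, ordered by mean, with a point for each array and a bar for the mean of 6 arrays. Only 3 points lie above 0, at 1.56 for a Bub1b candidate and at 0.26 and 0.07 for Birc5 candidates.

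Cenpe is the only one of the 10 genes that, at the tolerance of 0.00051, a single probe (A_51_P174192) fits and that shares it with no other listed gene. Cenpe encodes the kinesin CENP-E, which sits at kinetochores and carries chromosomes toward the spindle equator. Its log2 ratios were -0.43, -2.13, -2.94, -3.09, -3.08 and -2.98 in replicates 1 to 6, with a mean of -2.44 ± 1.05 (SD, n = 6), or 5.43 times more signal in B16. All 6 arrays were below 0, replicates 3 to 6 were nearly equal, and replicate 1 was far closer to 0. The log2 signal in the B16 channel ran from 9.05 in replicate 1 to 11.59 in replicate 5, and in the melan-a channel from 7.59 in replicate 6 to 8.62 in replicate 1. The melan-a signal was above the 95th percentile of the negative control spots on 2 of 6 arrays and the B16 signal on 6 of 6. In replicate 1 the B16 signal of 9.05 was itself only 1.07 above the median of the negative controls, against 2.88 to 4.43 on the other arrays. The deposited signals carry no background correction, so where the melan-a signal is that low the ratio also depends on the background.

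**Figure D2:**
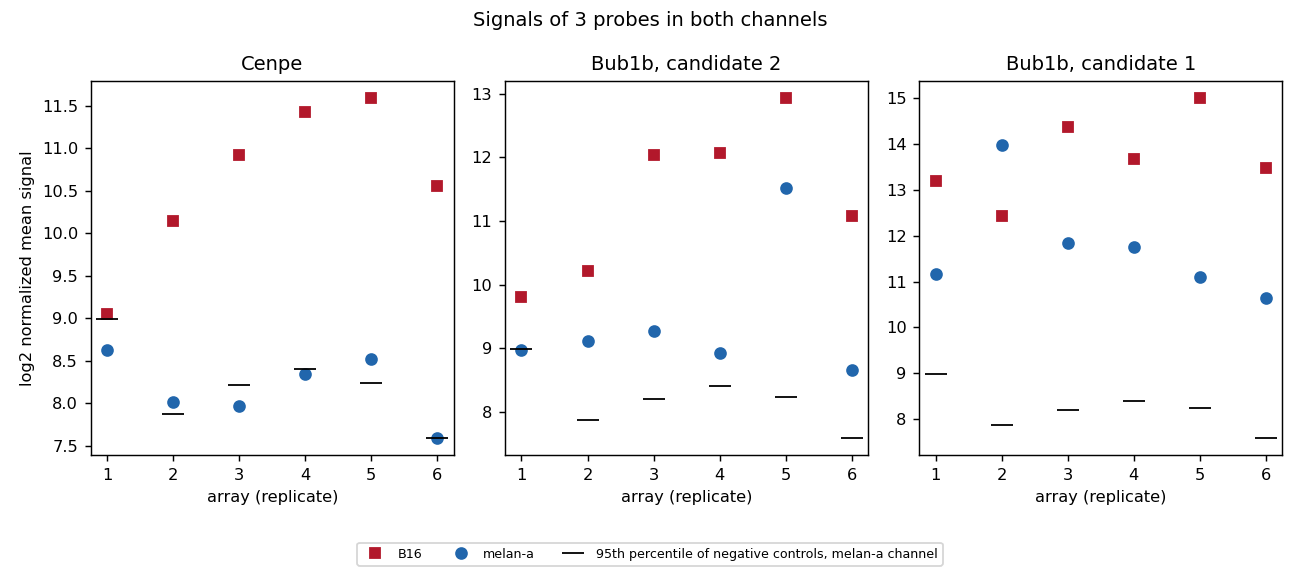
Log2 normalized mean signal (vertical axis, its range set for each panel) in B16 (squares) and melan-a (circles) by array, for the Cenpe probe and the 2 candidate probes of Bub1b. Dashes mark the 95th percentile of the negative controls in the melan-a channel, and in replicate 2 candidate 1 of Bub1b is the only panel point where melan-a, at 13.98, is above B16, at 12.42.

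Bub1 and Mad2l1 had means of -2.60 and -2.43, on either candidate probe. For Bub1 the first candidate (A_51_P123405) read -0.57, -1.80, -3.15, -3.75, -3.18 and -3.14 in replicates 1 to 6, with a mean of -2.60 ± 1.19 (SD, n = 6). The second (A_51_P351970) read -1.22, -2.33, -3.28, -3.22, -2.39 and -3.16, with the same mean and an SD of 0.80. The same fold is listed for Hells, a chromatin remodelling helicase, so a probe of the pair may be that of Hells. Whichever it is, Bub1 was below 0 on 6 of 6 arrays and replicate 1 was its smallest difference. For Mad2l1 the candidates read -0.47, -1.73, -2.59, -3.52, -3.06 and -3.20 (A_51_P204402) and -1.12, -1.67, -2.79, -3.65, -2.67 and -2.67 (A_51_P230873). The means were -2.43 on both, with SDs of 1.14 and 0.90. The other gene with this fold is Shcbp1, whose product binds the adaptor Shc. Replicate 1 was again nearest to 0 and replicate 4 farthest. A further entry of the list, described there as Mad2, has a pair of candidates of its own, with means of -2.61 and SDs of 0.78 and 0.67, and both were below 0 on 6 of 6 arrays.

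Bub1b gave the least settled values, because its candidates differ. Candidate 1 (A_51_P482070) read -2.02, 1.56, -2.53, -1.93, -3.91 and -2.83, with a mean of -1.94 ± 1.86 (SD, n = 6). Candidate 2 (A_51_P490509) read -0.83, -1.11, -2.78, -3.13, -1.41 and -2.41, with the same mean and an SD of 0.95. Candidate 1 was thus higher in melan-a in replicate 2 and lower on the other 5 arrays, while candidate 2 was lower on all 6. Without replicate 2 the mean of candidate 1 was -2.64. The list gives the same fold for H4c4, a histone H4 gene, and the values do not say which probe belongs to which gene. The size of 3.85 times is that of both.

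Bub3 showed a small difference on each of its 6 candidates, with means of -0.83 or -0.84 and SDs from 0.37 to 0.64. Bub3 encodes the WD-repeat protein that brings Bub1 and BubR1 to the kinetochore. The 36 values behind it ran from -1.82 to -0.01, all below 0. Replicate 4 held the largest difference for 4 of the 6 candidates and the smallest for another. The fold is shared with Spin1, Rbm14 and Ccdc137, and 1468 probes, 3.57% of the array, had a mean as low or lower, against 23 probes for Bub1.

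Of the centromere genes other than Cenpe, Cenpa encodes the histone H3 variant that marks the centromere. Its candidates had the same mean of -1.96, or 3.90 times more signal in B16, with unlike spread. The first (A_51_P273979) read -0.64, -0.89, -2.02, -3.80, -1.31 and -3.12, with an SD of 1.27. The second (A_52_P218201) read -1.86, -2.52, -1.59, -2.25, -1.75 and -1.82, with an SD of 0.35, the narrowest of the 17 candidates of the more strongly lowered genes. Both were below 0 on 6 of 6 arrays. The fold is also that of Ilf2, a double-stranded RNA binding protein gene, so Cenpa is either the even or the uneven probe.

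Aurka, listed under its older name Stk6, encodes Aurora A, the kinase of centrosome maturation and bipolar spindles. Its first candidate (A_51_P150912) read -0.72, -0.64, -2.55, -3.06, -1.53 and -2.84, a mean of -1.89 ± 1.07 (SD, n = 6). The second (A_52_P162099) read -0.54, -1.42, -2.50, -2.64, -1.75 and -2.50, with the same mean and an SD of 0.82. Replicates 1, 2 and 5 were the 3 smallest differences on both. The gene that shares this fold is Ckap2, another gene of the mitotic spindle. Birc5 encodes survivin, which docks the Aurora B kinase at the inner centromere. It has 9 candidates, shared with 8 other entries, with means of -0.86 and SDs from 0.23 to 0.81, and its 54 values ran from -2.37 to 0.26. On 7 of the 9 candidates all 6 arrays were below 0. For Birc5 neither the spread nor the pattern over the arrays can be given, only the mean.

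The cytokinesis genes were both in the range of the larger differences. Ect2 has 3 candidates, shared with Cdca3 and Tfpi, with means of -2.40 or -2.39. They read -0.77, -1.57, -2.90, -3.20, -3.07 and -2.89 (A_51_P130015), then -1.97, -1.99, -2.10, -4.40, -1.28 and -2.61 (A_52_P628067), then -1.02, -2.17, -2.59, -3.72, -2.36 and -2.50 (A_52_P631889). The value of -4.40 in replicate 4 was the lowest of all 192. Anln also has 3 candidates, with Tmem144 at the same fold, and a mean of -2.16, or 4.47 times more signal in B16. They read -0.90, -1.74, -2.28, -3.64, -1.88 and -2.53 (A_51_P484537), then -1.01, -1.25, -2.85, -2.50, -2.37 and -2.97 (A_52_P512955), then -0.27, -1.83, -2.38, -3.53, -2.19 and -2.75 (A_52_P571371). Each of these 6 probes was below 0 on 6 of 6 arrays, and replicate 4 was farthest from 0 on 5 of them.

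The arrays differed in the size of the difference more than the genes of the larger range did among themselves. Over the 17 candidates of Bub1, Bub1b, Mad2l1, Cenpa, Cenpe, Aurka, Ect2 and Anln, the median log2 ratio was -0.83 in replicate 1 and -1.73 in replicate 2. It was -2.59, -3.22, -2.36 and -2.83 in replicates 3 to 6. Of all 32 candidates, 20 had their smallest difference in replicate 1 and 22 their largest in replicate 4. Over all probes the median absolute log2 ratio was largest in replicate 4, at 0.374 against 0.21 to 0.294 on the other arrays. In replicate 1 it was 0.265. The share of all probes with such extremes on these arrays was not counted. The header of replicate 1 gives another day of quantification than the others, and over all probes its ratios correlated with those of the other arrays at a mean r of 0.33 and at 0.07 with replicate 4, while the other 5 arrays had mean correlations of 0.43 to 0.53. These are correlations across probes of single arrays, and probes are not replicates. Its negative controls were also the brightest, with a median summed signal of 533.4 against 283.9 to 402.7, and on it 14 of the 32 candidates had a melan-a signal at or below the 95th percentile of the negative controls. On the other arrays 0 to 5 candidates did. The part of background in the smaller ratios of replicate 1 was not tested. Without replicate 1 the mean of Cenpe was -2.84.

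**Figure D3:**
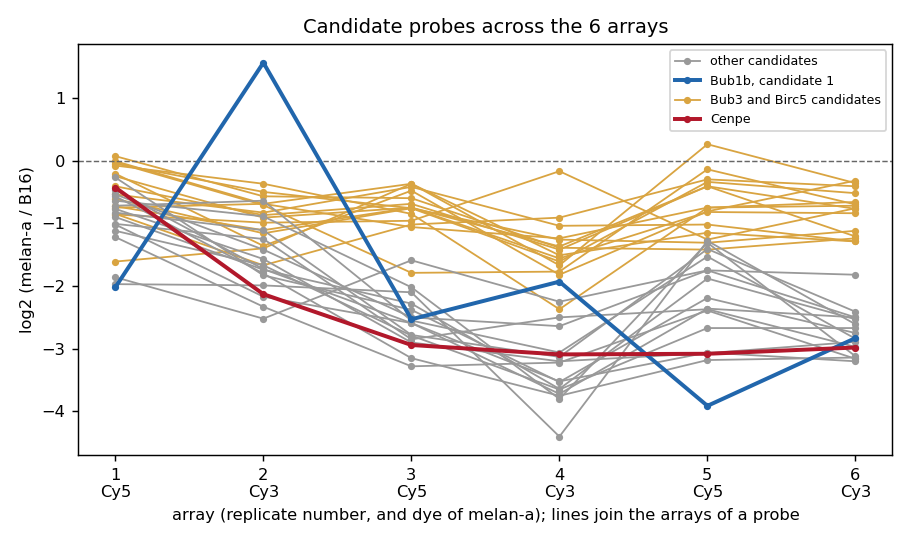
Log2 ratio of melan-a over B16 (vertical axis) of the 32 candidate probes by array (horizontal axis, with the dye of melan-a), a line for each probe. Most lines of the more strongly lowered genes (grey, red and blue) start near the replicate 1 median of -0.83 and are lowest in replicate 4, at a median of -3.22.

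For the description of the whole array, a probe was called with a limma one-class adjusted p under 0.10 and a fold over 1.5. By this rule 6.31% of the 39687 probes tested were lower in melan-a and 5.23% were higher. All 32 candidates were called lower, all having 6 arrays above the limit on summed signal, but nothing is read from this count, since the rule that found them used the same contrast. The limit was applied here to signals without background correction, while the study applied its own to background-subtracted signals. The median summed signal of the negative controls was 533.4 in replicate 1 and 402.7 in replicate 4, so passing the limit there is no sign of signal. With a replicate left out, the candidates that lost the call were those of Birc5 (3 of 9), Bub3 (1 of 6) and Bub1b (1 of 2). For Bub1b this was candidate 1, without replicate 3, 5 or 6. Over all probes 2504 were called lower, and 2011 to 2815 with a replicate left out. The calls rest on the contrast that chose the candidates, so nothing is read from these losses either. At the edge of the matching rule, the Bub3 candidate farthest from the listed fold lay 0.00048 from it and the nearest probe outside 0.00054, while the Bub1 candidates lay within 0.00015 and the nearest other probe 0.0013 away. The Cenpe probe lay 0.00016 from its fold and the nearest probe outside 0.00056, so that with a tolerance of 0.001 Cenpe has 2 candidates.

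A difference between the dye orientations does not enter the choice of the probes, and it was tested with limma. The tested value is the log2 ratio with melan-a in Cy5 minus that with melan-a in Cy3. For Cenpe the means were -2.15 in Cy5 and -2.73 in Cy3, a difference of 0.58 ± 0.63 (SE), with an adjusted limma p of 0.73. Over the 32 candidates the differences ran from -1.75 ± 0.98 for candidate 1 of Bub1b to 1.28 ± 0.67 for the first of Cenpa. None had an adjusted p under 0.10 by limma, the smallest was 0.31, and 1 had an unadjusted p under 0.05. Of all 39659 probes in that fit, 0.0403% had an adjusted p under 0.10 and 13.2% an unadjusted p under 0.05. The difference was above 0 for 30 of the 32 candidates, with a median of 0.55, against 49.5% of all probes. Replicate 1, where the ratios were smallest, is a Cy5 array, and without it 22 of 32 were above 0, with a median of 0.23. With 3 arrays in each orientation and standard errors of 0.24 to 0.98, a dye difference of that size could not be resolved for a single probe.

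**Figure D4:**
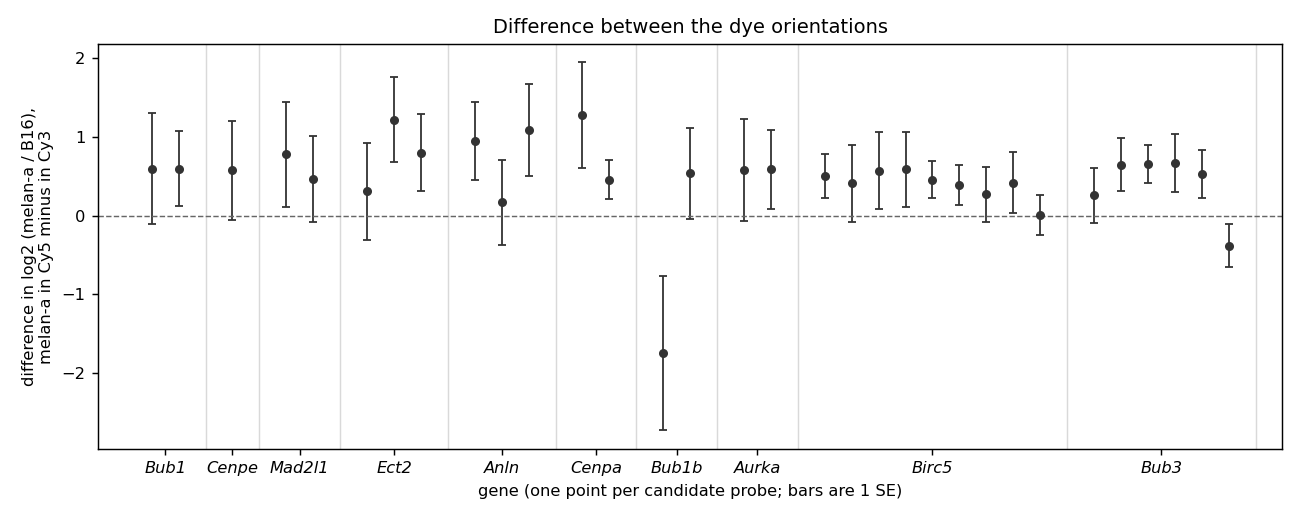
Difference in the log2 ratio between the dye orientations, melan-a in Cy5 minus melan-a in Cy3 (vertical axis), for each of the 32 candidate probes, with bars of 1 SE from limma. All differences but 2 are above 0, and the lowest, at -1.75, is candidate 1 of Bub1b.

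The other genes of these pathways were taken from 6 lists by role, which hold 111 genes besides the 10. Of these, 50 were found in the study's list by symbol, and 61 were not. Of these 61, 5 (Aurkb, Cdca8, Cenpf, Kif14 and Kif20b) have an entry named only by its description or elsewhere in the study, and they are given apart from the counts. The other 56 have no named probe here. The list was itself chosen on these arrays, so that the found genes differ is no independent evidence of a direction. Every candidate probe was past the thresholds and lower in melan-a for 39 of the 50 genes and higher for 2, and for the remaining 9 all candidates but 1 were past them. This is 78.0% lower and 4.0% higher, where all 2348 named genes of the study's list with a candidate probe, the 50 included and the 10 left out, had 36.4% lower and 31.8% higher by the same count. The median of the mean log2 ratios was -1.27 over the 50 genes and -0.65 over the 2348. It was 0.01 over all probes tested, which had no cutoff on fold and are no like comparison. The study's list leaves out small folds, so a median over both signs depends on the share of genes below 0. That share was 96.0% of the 50 genes and 56.4% of the 2348. Among the genes below 0 alone the medians were closer, at -1.29 for those of the 50 and -0.93 for those of the 2348. Many of these genes share candidates with each other, so the counts are not counts of separate measurements.

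Of 10 other spindle checkpoint genes, 5 were listed and 4 were lower on every candidate. They were Spdl1, which recruits dynein to kinetochores (-1.68), Zw10 of the complex that does so with it (-1.57), the kinase Nek2 (-1.44) and the checkpoint kinase Ttk (-1.39). Ttk thus had 2.62 times more signal in B16, on 5 candidates with 6 of 6 arrays below 0. Mad1l1, which holds Mad2 at kinetochores, was not found in the list. Of 35 other centromere and kinetochore genes, 19 were listed, 15 were lower and 1 higher. Among the larger differences were those of Cenpk (-2.32), Ska1 (-2.17) and Cenph (-1.93). The candidates of Cenpk had SDs of up to 1.46, with as few as 5 of 6 arrays below 0. Nuf2 of the NDC80 complex had -1.44, on the probes of Nek2. A second entry, described as centromere autoantigen H, gave a smaller -0.70 for Cenph, with 13 of 14 candidates past the thresholds and as few as 4 of 6 arrays below 0 on a candidate. Cenpf, named after its value was seen like the other entries of this kind, had -0.98, with all 6 candidates past the thresholds. Ndc80 itself was not found by name. The single gene higher in melan-a, named after its value was seen, was Clip1, which encodes a microtubule plus-end protein, at 2.24 times more signal in melan-a.

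Of the chromosomal passenger complex besides Birc5, Incenp was the only one of 4 genes found by symbol, with a mean of -0.96 and 7 of 8 candidates past the thresholds. Its candidates are also those of Kif20a. An entry described as aurora kinase B gave -1.88 for Aurkb, the kinase of the complex, and an entry that the study names elsewhere as Cdca8, which encodes borealin, gave -1.95. Both were below 0 on 6 of 6 arrays on every candidate, and the candidates of Cdca8 are also those of Kif23. In the list of Aurora A and spindle assembly 15 of 23 other genes were found and 13 were lower, led by the kinesin Kif11 (-2.12), the centriole kinase Plk4 (-1.89), Ckap2 (-1.89, on the probes of Aurka) and the kinesin Kif4 (-1.68, on the probes of Spdl1). The candidates of Plk4 had SDs of up to 1.77 and a highest value of 1.48, with as few as 5 of 6 arrays below 0. Plk1, the main Polo-like kinase of mitosis, had a mean of -0.77, with 7 of 8 candidates past the thresholds. Of 18 genes of anaphase onset, 4 were found and 3 were lower, namely Ube2c (-1.19), Anapc5 (-1.13) and Ube2s (-0.75). Cdc20, which Mad2 and BubR1 bind, had -0.75, with 6 of 7 candidates past the thresholds.

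Of 21 other cytokinesis genes, 6 were found, 4 of them lower and 1 higher. Racgap1 and Kif23, which together form the centralspindlin complex that recruits Ect2, had -2.23 and -1.95, or 4.68 and 3.88 times more signal in B16. Ect2 at -2.40 and Racgap1 at -2.23 thus lay closer together than the SDs of their candidates, 0.86 or more for Ect2. These SDs include shifts between arrays that the probes share, and the genes were not compared array by array. Prc1, which bundles microtubules of the central spindle, had -0.84. Kif20a had -0.96 on the probes of Incenp, with 7 of 8 candidates past the thresholds. Myh10, a nonmuscle myosin heavy chain, went the other way, with 2.03 times more signal in melan-a and 0 of 6 arrays below 0 on its single candidate. The entries described as the kinesins Kif20b and Kif14 had -2.57 on a single candidate, below 0 on 6 of 6 arrays, and -0.84 with 11 of 12 candidates past the thresholds.

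**Figure D5:**
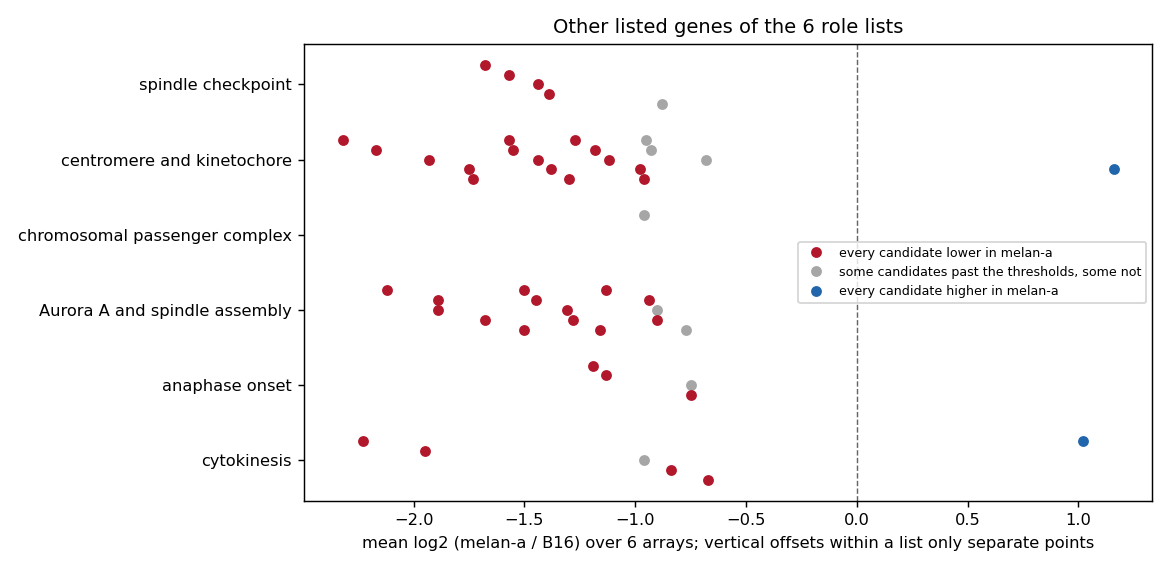
Mean log2 ratio of melan-a over B16 (horizontal axis) of the listed genes of 6 role lists, the 10 genes left out, with a point for each gene. Points left of 0 are lower in melan-a, and 2 genes, Clip1 and Myh10, lie to the right at 1.16 and 1.02.

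By the root mean square difference of the deviations of the 6 arrays from each gene's own mean, the pattern over arrays most like that of Cenpe belonged to Ttpa (0.20), Epha3 (0.24) and Furin (0.27), among 355 genes with a candidate probe of their own. The median over the 355 was 1.16. Ttpa, with a mean of -2.36, and Epha3, with -3.58, were also lower in melan-a, while Furin was higher, with 1.13. In Furin as in Cenpe replicate 1 held the highest ratio, at 2.71. Points of this measure share the 6 arrays and their depth, and it describes these arrays only.

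Markers of other cell types were looked up in the same list. Of 9 melanocyte markers Kit was listed, with 1.85 times more signal in melan-a. Of 7 fibroblast and smooth muscle markers Col1a1 and Acta2 were listed, with 7.18 and 3.32 times more in melan-a, and of 5 blood cell markers Lyz2, with 5.61 times. None of 6 keratinocyte markers was listed. Markers without a named probe could not be read, so the labelled cell types were not checked beyond these, and the part of other cells in the values of the 10 genes was not tested.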

How the data were processed

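Signals were deposited on a log2 scale. Their headers name ImaGene 6.0.1, with which the authors normalized mean and median signals by global lowess (smoothing 0.2) without background correction. The deposited value table holds log2 ratios, with the columns of replicates 4 and 5 exchanged. Ratios were turned to melan-a over B16 by the dye labels and the image order. Fits left out spots whose 2 signals, not background-corrected, summed to 400 or less. The study's limit of 400 was on background-subtracted signals. A probe needed 3 arrays, and spots of a probe were averaged. Means and SDs of the named genes use all 6 arrays.

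Fits used limma 3.58.1 in R 4.3.3, with Benjamini-Hochberg adjustment over all probes, a one-class model for the calls and a dye coefficient for the orientations, and were tested on simulated data. Python 3.11.15, numpy 2.4.6, pandas 2.3.3 and matplotlib 3.10.9 did the rest. The RefSeq gene table gave a symbol for the accession of 2283 of the 3549 listed entries, and 41 and 58 were named by symbol or synonym. The retinoic acid arrays of the study were not analysed here. The array files state no reason for their spot flags, which were not used.

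The genes, lists and tests were chosen with earlier results of these data known. Named were the 10 genes, up to 4 genes of each list with the largest mean ratio, 13 key genes whatever their result, the 3 genes most like Cenpe over the arrays, and genes sharing a candidate with the 10. A gene that this rule names is not reported here. Alternatives were median signals, no signal limit, arrays centred or scaled, the dye coefficient in the calls, other matching tolerances, the deposited ratio table and each array left out.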

Additional observations from a re-analysis of the deposited data

Results flagged for a closer look

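In 3 of the 32 candidate probes a single array lay far from the other 5, with a gap to its neighbour above Dixon's 95% critical value for 6 values, as a share of the whole range (0.64, 0.67 and 0.64). Such a gap arises by chance in about 1 of 20 groups of this size. For candidate 1 of Bub1b it was replicate 2, at 1.56 with the next value at -1.93. For a Birc5 candidate (A_51_P335077) it was replicate 4, at -2.37 with the next value at -0.85, and without it the mean was -0.55 and the probe was no longer past the thresholds. For Cenpe it was replicate 1, at -0.43 with the next value at -2.13.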

How the results depend on the processing

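The mean log2 ratio of each of the 32 candidate probes kept its sign and moved by less than its SD with median signals and with arrays scaled alike. Centring moves an array only by its median over all probes, between -0.04 and 0.023. Without the signal limit and from the deposited ratio table the means could not differ. All 32 candidates passed the limit on every array, and the table holds the same ratios. The sign also held with each array left out, where a mean of 6 values cannot move by as much as its SD. The median of the 10 genes was -2.06, and -2.32 to -1.89 with an array left out. Of the 32 candidates, 29 to 31 stayed past the thresholds without a replicate. Over all probes the number called lower in melan-a was 2504, and 2011 to 2815 without a replicate. The candidates were matched by their mean over the same arrays, so nothing is read from how many stayed. With a matching tolerance of 0.00026 Cenpa had 0 candidates and the other genes had 15 past the thresholds. With 0.001 the 10 genes had 50. The counts changed because fewer or more probes matched. The list genes past the thresholds, 41, numbered 34 to 40 without a replicate, and 44 with entries named by description, an alternative chosen after seeing the data. Each ratio already pairs the cell lines within an array, and no further replicate block was fitted. Precision is limited by 6 arrays, by melan-a signals near the negative controls, and by shared folds, which leave the probe of 9 of the 10 genes undecided.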
